A study of Mus musculus with 24 samples.

Results

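The genes described here are 10 markers and regulators of alternative macrophage activation and type 2 immunity: Arg1, Chil3, Retnla, Mgl2, Clec10a, Il10, Il4ra, Il33, Il1rl1 and Gata3. They were listed by name, with earlier results of these data known. Each gene is represented by its probe set of highest mean signal. Of these 10 genes, 9 were measured, each by 1 probe set, among 19938 named genes in all. Il1rl1, which encodes the interleukin-33 receptor ST2, was not analysed here.

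RNA had been measured on Affymetrix arrays in epididymal fat of 24 wild-type male C57Bl/6 mice, 6 mice in each of 4 groups: lard-fed conventional mice, lard-fed germ-free mice, fish oil-fed conventional mice and fish oil-fed germ-free mice. Germ-free mice carry no bacteria, and conventional mice keep an ordinary microbiota. Both diets gave 45% of energy as fat, from lard or from menhaden fish oil, to mice that were 11 weeks old, and feeding lasted 11 weeks. All mice had been fasted for 4 h before tissue was taken. Values are log2 signals after robust multi-array averaging (RMA), so a difference of 1 is a doubling of signal, and each gene is compared only with itself between mice. The tissue is whole fat, in which fewer cells of a type and less RNA per cell cannot be told apart.

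Alternative activation is the state that macrophages take on when interleukin-4 or interleukin-13 binds a receptor containing the product of Il4ra and activates the transcription factor STAT6. In mouse tissue it is recognised by Arg1, Chil3 and Retnla and by the galactose-binding lectins Mgl2 and Clec10a. In lean fat, interleukin-33 from stromal cells acts through ST2 on group 2 innate lymphoid cells and regulatory T cells, many of which depend on GATA3, and these cells and eosinophils are a known source of type 2 cytokines.

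The receptor gene, arginase and the lectin genes were not all called in the same comparisons. For conventional over germ-free with lard, all 9 measured genes had a positive change, from 0.20 to 0.80, and 2 passed. All 9 interactions were positive too, from 0.14 to 0.91, and 2 passed. In conventional mice, Il4ra had a higher signal with lard than with fish oil, and in germ-free mice a lower one. Arg1 had the same signs, with a call in conventional mice that most alternatives ended. Clec10a was higher with lard among conventional mice. Mgl2 differed with bacterial status in lard-fed mice. Retnla, Chil3 and Il33 passed the test in none of the 5 comparisons, although Retnla and Il33 varied widely between mice of one group. At an unadjusted p under 0.05, Retnla passed in 1 comparison and Chil3 in 2.

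Mature adipocyte markers averaged 12.17 in lard-fed conventional mice, 12.20 in lard-fed germ-free mice, 12.61 in fish oil-fed conventional mice and 12.49 in fish oil-fed germ-free mice. Lard-fed conventional mice 5 and 6 stood apart from the other mice of their group. Macrophage markers averaged 10.94 and 10.92 in these 2 mice, with 10.28 to 10.51 in the other 4, and adipocyte markers averaged 11.87 and 11.88, with 12.28 to 12.35 in the other 4. Lard-fed germ-free mice 2, 4 and 5 had intestinal epithelium marker means of 6.47, 9.65 and 6.65, against 5.68 to 6.13 in the other 21 mice. Fish oil-fed germ-free mice had liver marker means of 7.89 to 9.16, and the other 18 mice had 6.15 to 7.89, with fish oil-fed conventional mouse 6 at 7.89 and lard-fed conventional mouse 1 at 7.87. Calls on the 9 genes that leaving out these mice, or a liver covariate, ended or made are given both ways. The liver covariate nearly coincides with the fish oil-fed germ-free group, so fits with it cannot separate liver RNA from that group.

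Each comparison came from a linear model in limma over all 24 arrays, with Benjamini-Hochberg adjustment over the 19938 genes and a threshold of 0.05 for the adjusted p. With lard against fish oil in conventional mice, 4 of the 9 measured genes were higher and the other 5 did not pass. Among all genes 31.0% passed in that comparison, 15.4% higher and 15.6% lower. In germ-free mice, lard went with a lower signal for 3 of the 9 genes, while 47.5% of all genes passed, 20.4% higher and 27.1% lower, so the share of lower genes was near the background. In conventional against germ-free mice fed lard, 2 of the 9 genes were higher, with 16.3% of all genes passing, 8.77% higher and 7.48% lower. With fish oil, 2 of the 9 were lower, with 12.4% of all genes passing, 7.15% higher and 5.21% lower. The interaction, the change with bacterial status under lard minus that under fish oil, was positive for 2 of the 9 genes, with 7.20% of all genes passing, 2.81% positive and 4.38% negative. The mice of both groups did not overlap for 2 of the 9 genes with lard against fish oil in conventional mice (14.6% of all genes) and for 1 of the 9 in germ-free mice (24.5%). In both comparisons of bacterial status the groups overlapped for all 9 measured genes, where 4.15% of all genes with lard and 7.03% with fish oil did not overlap. The median change of the 9 genes was 0.40, -0.03, 0.30, 0.09 and 0.40 in these 5 comparisons, against -0.04, -0.08, 0.02, -0.01 and 0.04 for all genes. Comparisons share groups, so they do not count as independent of one another.

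**Figure D1:**
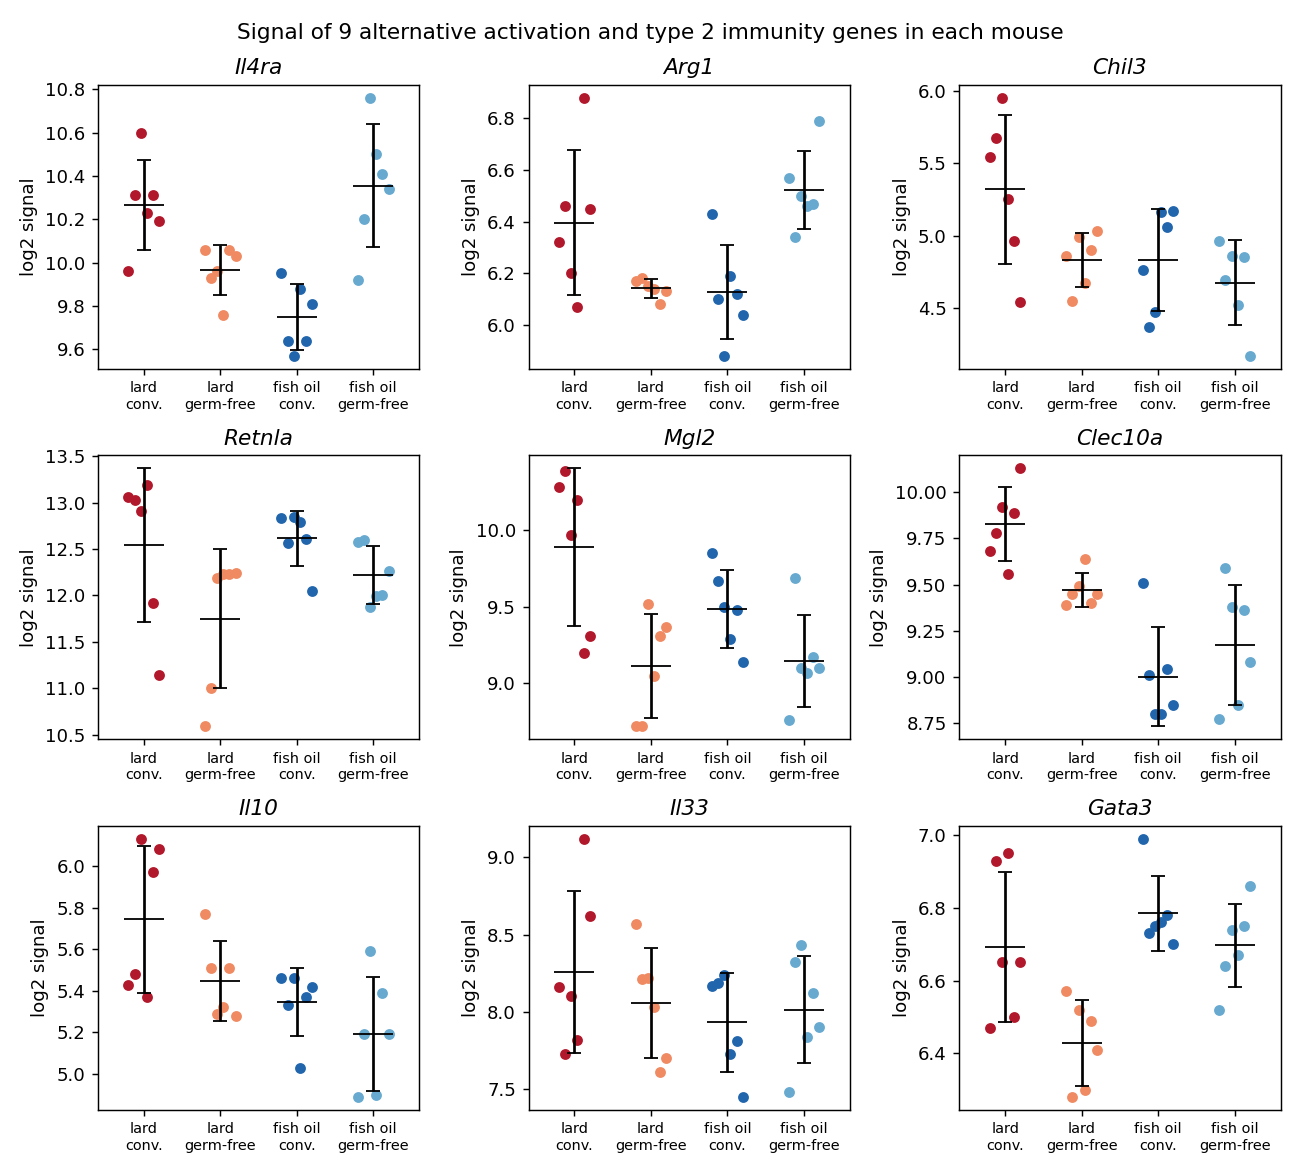
Log2 signal of the 9 measured genes in each mouse. Points are mice, horizontal bars are group means with SD (n = 6), and groups run from lard-fed conventional mice on the left to fish oil-fed germ-free mice on the right; each panel has its own axis. The lowest group is fish oil-fed conventional mice for Il4ra and Clec10a, and Retnla has 2 mice far below the others in each lard-fed group.

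Il33 encodes interleukin-33, an alarmin released from stromal and barrier cells. Its lowest, median and highest signals were 7.73, 8.13 and 9.12 in lard-fed conventional mice, 7.61, 8.12 and 8.57 in lard-fed germ-free mice, 7.45, 7.99 and 8.24 in fish oil-fed conventional mice, and 7.48, 8.01 and 8.43 in fish oil-fed germ-free mice. The 4 groups overlapped throughout, and the group medians lay closer together than the mice of any group. The change with lard over fish oil was 0.33 ± 0.21 (SE) in conventional mice, with an adjusted p of 0.257 and a 95% interval from -0.10 to 0.76. The 2 highest lard-fed conventional values, 9.12 and 8.62, were those of mice 5 and 6, which also had the highest macrophage marker means of the group. No Il33 comparison passed the test, with the smallest adjusted p at 0.257.

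Il10 encodes interleukin-10, an anti-inflammatory cytokine made by macrophages, regulatory T cells and other cells. Its mean signal lay at the 14.9th percentile of all genes, where RMA values are compressed towards the background. The lowest, median and highest signals were 5.37, 5.72 and 6.13 in lard-fed conventional mice, 5.28, 5.41 and 5.77 in lard-fed germ-free mice, 5.03, 5.39 and 5.46 in fish oil-fed conventional mice, and 4.89, 5.19 and 5.59 in fish oil-fed germ-free mice. Lard-fed conventional mice held the 3 highest values and still overlapped the other groups. Il10 was higher with lard in conventional mice by 0.40 ± 0.14 (adjusted p = 0.0298), and the value without lard-fed conventional mice 5 and 6 was 0.26 (adjusted p = 0.233). The change in germ-free mice was 0.25 ± 0.14 (adjusted p = 0.129). Within groups, Il10 followed the macrophage marker mean, with a Pearson r of 0.72 between deviations from the group means over 24 mice (permutation p adjusted over 144 relations 0.0135).

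Of 16 other genes for type 2 cytokines and their receptors, 8 were higher and 1 lower with lard in conventional mice (all genes: 15.4% and 15.6%). In germ-free mice 6 were higher and 3 lower (all genes: 20.4% and 27.1%). Neither Il4 nor Il5, which encode cytokines made by type 2 lymphocytes, passed the test in any comparison. Their mean signals were low, so a change could go unseen. In conventional mice they were 5.93 with lard and 5.91 with fish oil for Il4, and 4.85 and 4.94 for Il5. Il13ra2, which encodes a receptor chain that binds interleukin-13 with high affinity, had the largest change of the list, 1.32 in conventional mice (adjusted p = 2.24e-05) and 1.16 in germ-free mice (adjusted p = 6.94e-05). Its mean signals were low, at 5.67 with lard and 4.36 with fish oil in conventional mice. Both chains of the interleukin-10 receptor were higher with lard. Il10ra changed by 1.08 in conventional mice and 0.97 in germ-free mice, and Il10rb by 0.93 and 1.11. Il17rb, which encodes a receptor chain for interleukin-25, was lower by the same comparison, with changes of -0.45 and -0.40. Csf2rb, the common chain of the receptors for interleukin-3, interleukin-5 and GM-CSF, had an interaction of 0.70 (adjusted p = 0.0123). Tslp, which encodes an epithelial and stromal cytokine that promotes type 2 responses, was higher in conventional than germ-free mice fed lard by 0.54 (adjusted p = 0.0104).

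Il4ra encodes the interleukin-4 receptor alpha chain, shared by the receptors for interleukin-4 and interleukin-13. Its lowest, median and highest signals were 9.96, 10.27 and 10.60 in lard-fed conventional mice, 9.76, 9.99 and 10.06 in lard-fed germ-free mice, 9.57, 9.73 and 9.95 in fish oil-fed conventional mice, and 9.92, 10.38 and 10.76 in fish oil-fed germ-free mice. Every lard-fed conventional mouse was above every fish oil-fed conventional mouse, a separation counted above. In fish oil-fed mice the conventional group was the lower one, and a single germ-free mouse fell within its range. Il4ra was higher with lard in conventional mice by 0.52 ± 0.11 (1.43-fold, adjusted p = 0.000699) and lower in germ-free mice, with a change of -0.39 ± 0.11 (adjusted p = 0.006). Conventional over germ-free was -0.61 ± 0.11 with fish oil (0.657-fold, adjusted p = 0.00104) and 0.30 ± 0.11 with lard (adjusted p = 0.0616, and 0.38 with an adjusted p of 0.00688 under a liver covariate). The difference between these 2 changes, the interaction, was 0.91 ± 0.16 with a 95% interval from 0.59 to 1.23 (adjusted p = 0.00166).

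The Il4ra interaction ranged from 0.83 to 1.39 over 35 alternative settings and left-out mice, with adjusted p from 0.000223 to 0.0212. The change in germ-free mice was -0.34 (adjusted p = 0.0764) once lard-fed germ-free mice 2, 4 and 5 were left out. Liver markers were high in fish oil-fed germ-free mice, the group with the highest Il4ra mean. With the liver marker mean as a covariate the interaction was 1.39, and within groups the Pearson r between Il4ra and that mean was -0.59 over 24 mice (permutation p adjusted over 144 relations 0.0385).

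Downstream of the receptor, 15 genes of interleukin-4 and STAT6 signalling were measured. With lard, 5 rose and 3 fell in conventional mice (all genes: 15.4% and 15.6%). In germ-free mice 4 rose and 6 fell with lard (all genes: 20.4% and 27.1%). Stat6 was higher by 0.32 and 0.31, and its conventional over germ-free changes were -0.10 with lard and -0.11 with fish oil, neither past the threshold. Egr2, a transcription factor gene induced by interleukin-4 in macrophages, was higher with lard by 1.58 in conventional mice (adjusted p = 5.39e-05) and 1.02 in germ-free mice (adjusted p = 0.00298). Jak1, which encodes a kinase bound to the receptor, was higher with lard by 0.28 and 0.62, and its interaction was -0.34 (adjusted p = 0.0402), opposite in sign to that of Il4ra. Pparg, which encodes the main adipocyte transcription factor and acts in alternatively activated macrophages too, had changes of -0.29 and -0.35 with lard.

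**Figure D2:**
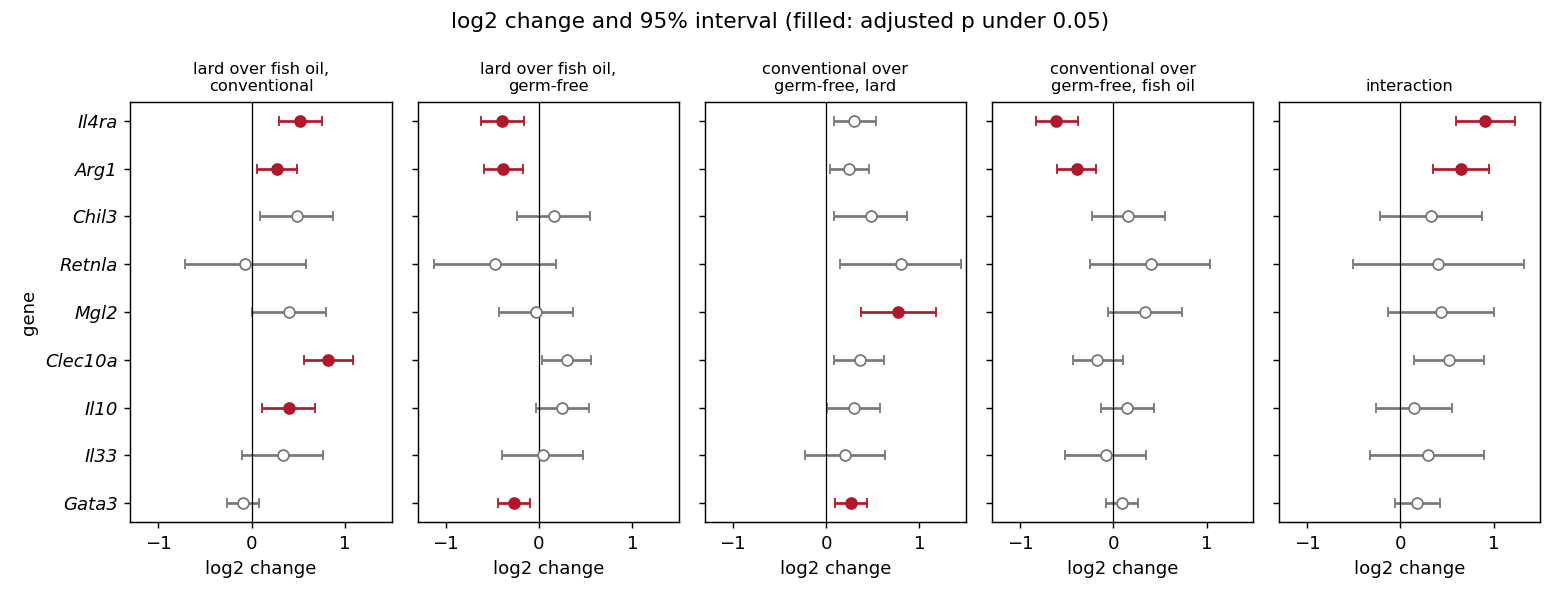
Log2 change (x axis) of each of the 9 genes in the 5 comparisons, with 95% intervals from limma; filled points have an adjusted p under 0.05 over 19938 genes. Il4ra and Arg1 lie on opposite sides of 0 in conventional and germ-free mice and have the only filled interaction points, 0.91 and 0.65.

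Gata3 encodes the transcription factor that directs type 2 helper T cells and group 2 innate lymphoid cells. Its lowest, median and highest signals were 6.47, 6.65 and 6.95 in lard-fed conventional mice, 6.28, 6.45 and 6.57 in lard-fed germ-free mice, 6.70, 6.76 and 6.99 in fish oil-fed conventional mice, and 6.52, 6.70 and 6.86 in fish oil-fed germ-free mice. Lard-fed germ-free mice were the lowest group, with some overlap with lard-fed conventional and fish oil-fed germ-free mice. Gata3 was lower with lard among germ-free mice, with a change of -0.27 ± 0.08 (adjusted p = 0.0102), and higher in conventional than germ-free mice fed lard by 0.27 ± 0.08 (adjusted p = 0.0272). Both changes rested on a range of signal under 1 log2 unit, and once lard-fed germ-free mice 2, 4 and 5 were left out they were -0.20 (adjusted p = 0.155) and 0.20 (adjusted p = 0.367). Markers of regulatory T cells moved in the same comparison: 6 of 11 fell with lard in germ-free mice. Of 13 markers of group 2 innate lymphoid and Th2 cells, 6 fell and 1 rose. Among all genes 27.1% fell and 20.4% rose. Both lists hold Il2ra, Areg, Ccr8 and Tnfrsf4, so their counts are not separate. The part of these cell types in the Gata3 result was not tested.

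Arg1 encodes arginase 1, which splits arginine into ornithine and urea and competes with nitric oxide synthase. Its mean signal lay at the 27.7th percentile of all genes. The lowest, median and highest signals were 6.07, 6.38 and 6.88 in lard-fed conventional mice, 6.08, 6.15 and 6.18 in lard-fed germ-free mice, 5.88, 6.11 and 6.43 in fish oil-fed conventional mice, and 6.34, 6.48 and 6.79 in fish oil-fed germ-free mice. Every lard-fed germ-free mouse was below every fish oil-fed germ-free mouse, the separation counted above. The change of Arg1 was -0.38 ± 0.10 with lard in germ-free mice (adjusted p = 0.00399) and -0.39 ± 0.10 for conventional over germ-free with fish oil (adjusted p = 0.0122). The interaction was 0.65 ± 0.14 (95% interval 0.35 to 0.95, adjusted p = 0.00883). The higher signal with lard in conventional mice, 0.27 ± 0.10 (adjusted p = 0.0478), was near the threshold and held in 9 of 35 alternative settings and left-out mice. Its change ran from 0.13 to 0.33 over these settings (adjusted p 0.0119 to 0.34), with the lowest value once lard-fed conventional mice 5 and 6 were left out.

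Arginase 1 is also an abundant liver enzyme of the urea cycle, and the liver marker list, which did not contain Arg1, was highest in the group where Arg1 was highest. Of its 22 measured genes, 21 fell with lard in germ-free mice (27.1% of all genes). In conventional against germ-free mice fed fish oil, 20 were lower (5.21% of all genes). Cps1, which encodes the first enzyme of the urea cycle, changed by -1.14 and -1.55 in those comparisons. Within groups the r between Arg1 and the liver marker mean was 0.02 over 24 mice (adjusted p = 0.935). With the liver mean as a covariate the 3 Arg1 changes were -0.36, -0.38 and 0.63, close to the values above, but none passed (adjusted p = 0.135, 0.161 and 0.0677). As this covariate nearly coincides with the fish oil-fed germ-free group, the fit cannot decide what part liver RNA has in them. With lard-fed germ-free mice 2, 4 and 5 left out, the interaction was 0.64 (adjusted p = 0.0716). Of 11 other enzymes of arginine and polyamine metabolism, 4 rose and 1 fell with lard in conventional mice (all genes: 15.4% and 15.6%). In germ-free mice 4 rose and 2 fell with lard (all genes: 20.4% and 27.1%). Arg2, the gene of the second arginase, passed in neither, with changes of -0.18 and 0.46. Odc1, which encodes the enzyme that turns ornithine into putrescine, was higher in conventional than germ-free mice fed fish oil by 0.26.

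Retnla (also called Fizz1 or RELM-alpha) and Chil3 (Ym1) encode secreted proteins used as standard marks of alternative activation in the mouse. The RefSeq promoter windows of both (GRCm38.p6, 250 bases before to 50 after the annotated start, on the gene's strand) are printed because they differ in STAT-type spacing, together with that of Il33, which shares the Retnla spacing, and that of Mgl2, which has none. Capitals mark TTCNNNNGAA, the spacing that STAT6 is known to prefer, or TTCNNNGAA, the spacing of other STAT factors. Both strands were searched, both motifs read the same on either strand, and no matches overlapped in these windows.
Retnla promoter, chr16:48842359-48842658, plus strand: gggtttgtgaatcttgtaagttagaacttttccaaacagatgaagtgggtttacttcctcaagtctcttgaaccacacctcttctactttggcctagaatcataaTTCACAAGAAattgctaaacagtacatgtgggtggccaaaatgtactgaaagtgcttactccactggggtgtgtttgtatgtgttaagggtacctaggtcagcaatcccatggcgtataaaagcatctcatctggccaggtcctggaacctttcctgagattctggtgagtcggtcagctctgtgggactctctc
Il33 promoter, chr19:29924863-29925162, plus strand: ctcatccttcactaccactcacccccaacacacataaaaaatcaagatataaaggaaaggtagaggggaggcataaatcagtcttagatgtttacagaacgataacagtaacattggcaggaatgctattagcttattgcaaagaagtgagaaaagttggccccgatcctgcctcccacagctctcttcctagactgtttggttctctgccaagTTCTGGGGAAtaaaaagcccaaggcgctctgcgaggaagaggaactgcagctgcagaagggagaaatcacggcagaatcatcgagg
Chil3 promoter, chr3:106167515-106167814, minus strand: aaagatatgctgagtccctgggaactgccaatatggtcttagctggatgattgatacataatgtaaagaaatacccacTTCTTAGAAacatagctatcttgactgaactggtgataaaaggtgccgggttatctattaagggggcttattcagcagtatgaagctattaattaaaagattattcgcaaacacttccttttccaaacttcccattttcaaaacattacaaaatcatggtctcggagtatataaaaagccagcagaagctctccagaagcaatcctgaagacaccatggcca
Mgl2 promoter, chr11:70130107-70130406, plus strand: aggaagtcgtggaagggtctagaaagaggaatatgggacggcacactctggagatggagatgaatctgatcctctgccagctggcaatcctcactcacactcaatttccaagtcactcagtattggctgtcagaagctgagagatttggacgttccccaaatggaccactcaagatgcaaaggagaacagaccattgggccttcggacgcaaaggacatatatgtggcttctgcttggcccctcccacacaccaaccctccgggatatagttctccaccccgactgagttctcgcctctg

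In the Retnla window the match TTCACAAGAA began 145 bases before the start, and in the Il33 window TTCTGGGGAA began 36 bases before it. Chil3 had TTCTTAGAA at 172 bases before the start. Windows were found for 6 of the 9 measured genes, 7 windows in all, and those of Mgl2, Il4ra and Gata3 and the other window of Il33 held neither motif. Among 32851 RefSeq windows of this length, 6.95% held TTCNNNNGAA and 8.3% held TTCNNNGAA. A match is a description of letters only.

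Retnla was among the most strongly detected genes, at the 98.8th percentile of mean signal. Its lowest, median and highest signals were 11.14, 12.97 and 13.19 in lard-fed conventional mice, 10.59, 12.21 and 12.24 in lard-fed germ-free mice, 12.05, 12.70 and 12.84 in fish oil-fed conventional mice, and 11.88, 12.13 and 12.60 in fish oil-fed germ-free mice. The lard-fed groups each split. Lard-fed conventional mice 1 to 4 lay between 12.91 and 13.19, while mice 5 and 6 had 11.92 and 11.14. Lard-fed germ-free mice 3 to 6 lay between 12.19 and 12.24, while mice 1 and 2 had 10.59 and 11.00. The SD was 0.83 and 0.75 in the lard-fed groups, against 0.30 and 0.31 in the fish oil-fed groups.

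With this spread, conventional over germ-free was 0.80 ± 0.31 with lard (95% interval 0.15 to 1.44, adjusted p = 0.0867) and 0.40 ± 0.31 with fish oil (adjusted p = 0.461). Lard over fish oil was -0.07 ± 0.31 in conventional mice (adjusted p = 0.899) and -0.47 ± 0.31 in germ-free mice (adjusted p = 0.214). Leaving out lard-fed conventional mice 5 and 6 brought the lard status change to 1.30 (adjusted p = 0.000661) and turned the conventional diet change to 0.44 (adjusted p = 0.273). The omitted mice were the 2 lowest of their group for Retnla, Chil3 and Mgl2, while the 2 lowest germ-free mice stayed in.

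Chil3, at the 9.7th percentile of mean signal, was close to the array background. Its lowest, median and highest signals were 4.54, 5.39 and 5.95 in lard-fed conventional mice, 4.55, 4.88 and 5.03 in lard-fed germ-free mice, 4.37, 4.91 and 5.17 in fish oil-fed conventional mice, and 4.17, 4.77 and 4.96 in fish oil-fed germ-free mice. Only lard-fed conventional mice exceeded 5.17, and their lowest mouse was as low as the other groups. The change with lard in conventional mice was 0.48 ± 0.19 (adjusted p = 0.0534), and conventional over germ-free with lard was 0.48 ± 0.19 (adjusted p = 0.0835). Without lard-fed conventional mice 5 and 6 both changes were 0.77, with adjusted p of 0.00174 and 0.0014.

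Mgl2 and Clec10a encode the mouse macrophage galactose-type lectins 2 and 1, which bind galactose and N-acetylgalactosamine on glycans and are found on macrophages and dendritic cells. They are neighbours on chromosome 11, with 0 annotated genes starting between them, and their sequences are highly similar, so cross-hybridisation between their probe sets was not tested. Mgl2 had a lowest, median and highest signal of 9.20, 10.08 and 10.39 in lard-fed conventional mice, 8.72, 9.18 and 9.52 in lard-fed germ-free mice, 9.14, 9.49 and 9.85 in fish oil-fed conventional mice, and 8.76, 9.10 and 9.69 in fish oil-fed germ-free mice. Lard-fed conventional mice 1 to 4 were above all other mice of the study, and mice 5 and 6, at 9.20 and 9.31, lay within the range of the other groups.

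Mgl2 was higher in conventional than germ-free mice fed lard by 0.77 ± 0.19 (1.71-fold, 95% interval 0.37 to 1.18, adjusted p = 0.00735). With fish oil the change was 0.34 ± 0.19 (adjusted p = 0.274), and the interaction was 0.43 ± 0.27 (adjusted p = 0.375), so the 2 changes were not shown to differ. Lard over fish oil was 0.40 ± 0.19 in conventional mice (adjusted p = 0.124) and -0.03 ± 0.19 in germ-free mice (adjusted p = 0.901). Without lard-fed conventional mice 5 and 6 the conventional diet change was 0.72 (adjusted p = 0.00293) and the interaction 0.75 (adjusted p = 0.0295). With lard-fed germ-free mice 2, 4 and 5 left out, the status change under lard was 0.69 (adjusted p = 0.14).

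Clec10a had a lowest, median and highest signal of 9.56, 9.83 and 10.13 in lard-fed conventional mice, 9.39, 9.45 and 9.64 in lard-fed germ-free mice, 8.80, 8.93 and 9.51 in fish oil-fed conventional mice, and 8.77, 9.22 and 9.59 in fish oil-fed germ-free mice. Every lard-fed conventional mouse was above every fish oil-fed conventional mouse. Clec10a was higher with lard in conventional mice by 0.82 ± 0.13 (1.77-fold, 95% interval 0.56 to 1.09, adjusted p = 2.65e-05), the largest change of the 9 genes in that comparison. Over 36 alternative settings and left-out mice it stayed between 0.73 and 0.92. In germ-free mice the change was 0.30 ± 0.13 (adjusted p = 0.0586), and conventional over germ-free with lard was 0.36 ± 0.13 (adjusted p = 0.0606). The interaction was 0.52 ± 0.18 (adjusted p = 0.0802). With the liver marker mean as a covariate these last 2 values were 0.40 (adjusted p = 0.0303) and 0.83 (adjusted p = 0.0486). Macrophage markers moved in the same comparison: 17 of 20 rose with lard in conventional mice (15.4% of all genes). Their mean was 10.57 ± 0.29 against 9.73 ± 0.19 (SD, n = 6 each). Of 12 dendritic cell markers, 8 rose and 1 fell in that comparison. The part of macrophages and of dendritic cells in the Clec10a result was not tested.

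Within groups the 9 genes fell along different lines. Deviations from the group means were correlated over 24 mice, with permutation of mice within groups (100000 resamples, two-sided). Of 36 pairs among the 9 genes, 1 passed after adjustment over the 36: Retnla and Mgl2, with a Pearson r of 0.77 (permutation p = 0.00057, adjusted 0.0205) and a Spearman rho of 0.77 (permutation p = 0.00028, adjusted 0.0101). Without the 2 mice farthest in Retnla, r was 0.72, and it was 0.88 in the 12 lard-fed mice and 0.39 in the 12 fish oil-fed mice. Mgl2 and Clec10a, the neighbouring lectin genes, had an r of 0.19 (adjusted p = 0.562), made up of -0.54 in lard-fed mice and 0.82 in fish oil-fed mice.

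**Figure D3:**
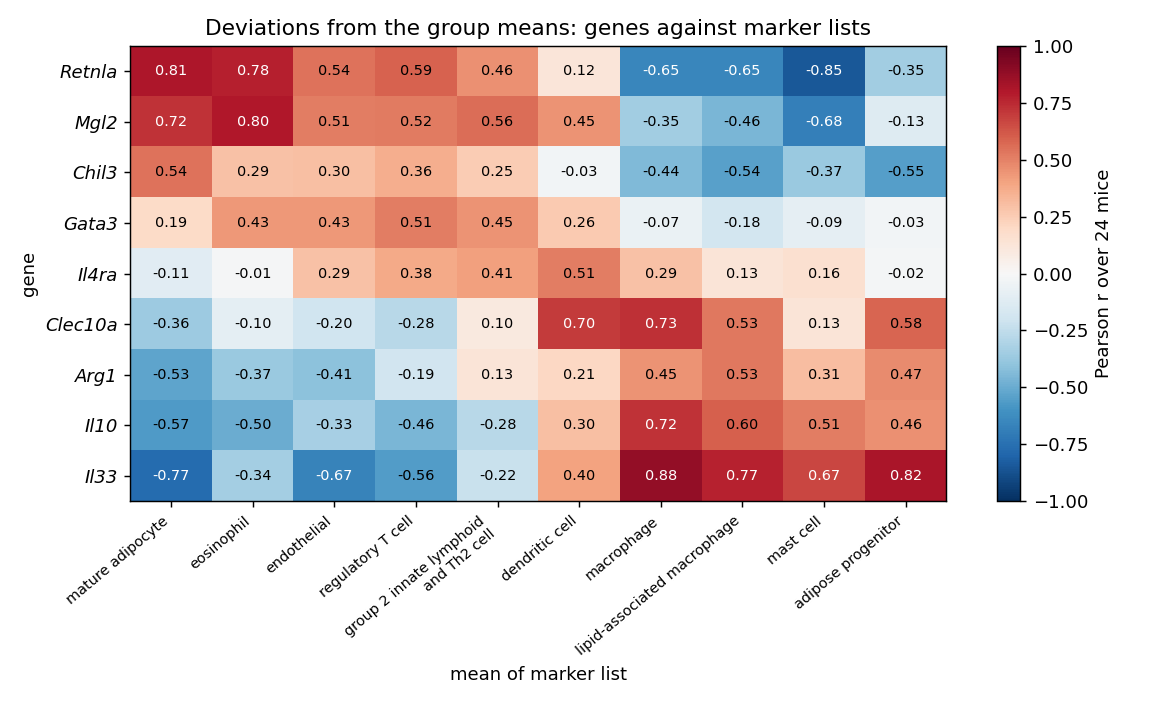
Pearson r over 24 mice between deviations from the group mean of each of the 9 genes (y axis) and of the mean of 10 marker lists (x axis); red is positive and blue negative. Retnla and Mgl2 at the top run with the mature adipocyte mean and against the mast cell mean, and Il33 at the bottom runs with the macrophage mean at 0.88 and against the adipocyte mean at -0.77.

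Of 144 relations between the 9 genes and 16 marker lists, 23 passed after adjustment. Il33 was related to the macrophage mean (r = 0.88, rho = 0.87, permutation p = 2e-05 for each, adjusted 0.00144 and 0.00096), with an r of 0.91 within the 12 lard-fed and 0.82 within the 12 fish oil-fed mice, and 0.85 without the 2 farthest mice. It was also related to the adipose progenitor mean, with an r of 0.82 (adjusted permutation p = 0.00144), at 0.90 and 0.76 within each diet. Clec10a followed the macrophage mean with an r of 0.73 (adjusted permutation p = 0.00384), at 0.62 within the lard-fed and 0.91 within the fish oil-fed mice. With the dendritic cell mean its r was 0.70 (adjusted permutation p = 0.0245), at 0.27 and 0.79 within each diet.

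Retnla went the other way. Its r was -0.65 with the macrophage mean (adjusted permutation p = 0.0257), -0.85 with the mast cell mean (adjusted 0.0135) and 0.81 with the mature adipocyte mean (adjusted 0.027). These relations were present in the 12 lard-fed mice, at -0.90, -0.94 and 0.92, and near 0 in the 12 fish oil-fed mice, at -0.01, -0.12 and -0.20, a difference that was not tested. In lard-fed mice they set apart the 4 mice with low Retnla, which had adipocyte means of 11.87 to 12.02 and macrophage means of 10.87 to 10.94. Mgl2 had an r of 0.95 with the adipocyte mean under lard and -0.32 under fish oil. Unlike Retnla, Mgl2 ran with the macrophage mean under fish oil, at 0.75, and against it under lard, at -0.94. Its r with the adipose progenitor mean was 0.87 under fish oil and -0.80 under lard. Over all 24 mice neither relation passed, with r of -0.35 and -0.13 (adjusted permutation p = 0.301 and 0.714). These differences between diets were not tested either.

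**Figure D4:**
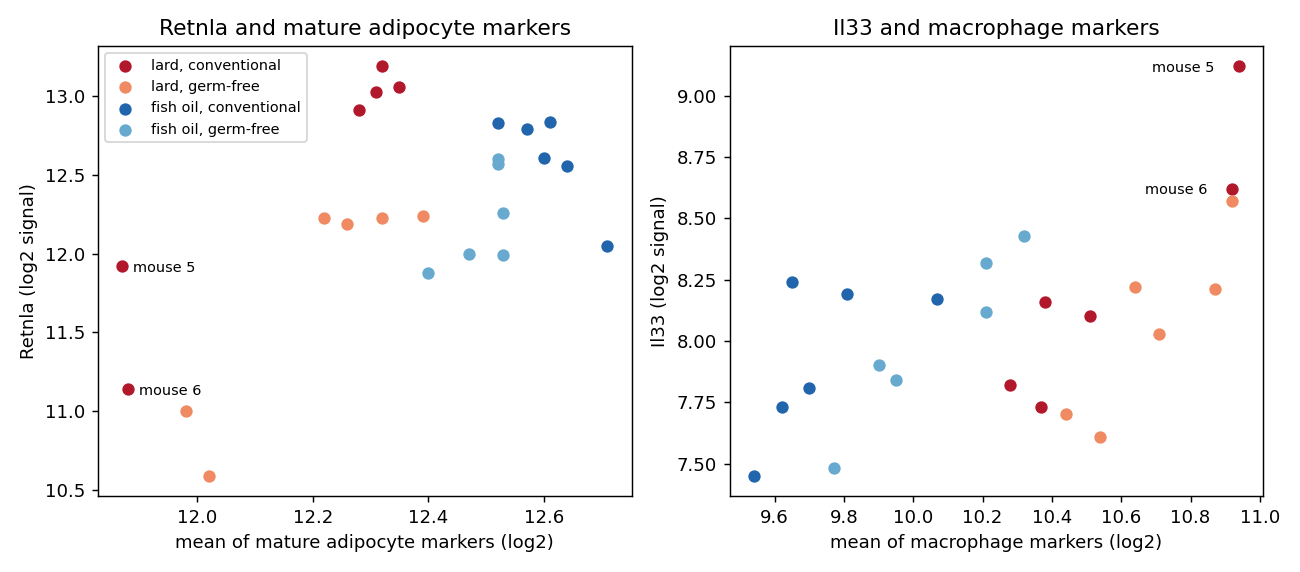
Left, Retnla signal against the mean of mature adipocyte markers; right, Il33 signal against the mean of macrophage markers (all log2; points are mice, coloured by group). The 4 lard-fed mice with Retnla under 12 and the lowest adipocyte means are lard-fed conventional mice 5 and 6, labelled, and 2 lard-fed germ-free mice; the same conventional mice have the highest Il33.

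Retnla and Mgl2 also correlated with the eosinophil marker mean, with r of 0.78 and 0.80 (adjusted permutation p = 0.00252 for each). The markers of that list did not run together. Those named here were singled out after their values were seen. With Rnase2a, which encodes a ribonuclease of the eosinophil-associated family, r was 0.83 for Retnla and 0.84 for Mgl2, and in fish oil-fed mice 0.70 and 0.64. Ear6, of the same family, had an r of 0.55 and 0.61, while Ccr3, the eotaxin receptor gene, had -0.64 and -0.46. Prg3, a granule protein gene, had 0.49 and 0.22, and Siglecf, Epx, Prg2 and Il5ra lay between -0.04 and 0.16. With the mean of the 7 eosinophil markers other than Rnase2a, which joins members of opposite sign, it was -0.10 and -0.09. The lowest, median and highest Rnase2a signals were 6.41, 10.4 and 11.8 in lard-fed conventional mice, 5.22, 7.19 and 8.56 in lard-fed germ-free mice, 5.55, 7.95 and 10.19 in fish oil-fed conventional mice, and 5.80, 6.53 and 8.39 in fish oil-fed germ-free mice. Rnase2a was higher in conventional than germ-free mice fed lard by 2.66 (adjusted p = 0.04).

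The genes whose deviations over the 24 mice were most like those of each gene are given as a description, with no test. For Retnla they were Rbp4 at 0.94, Orm1 at 0.91 and Cpne2 at 0.90. Rbp4 encodes a retinol carrier made by adipocytes and liver, and Orm1 an acute-phase glycoprotein. For Mgl2 they were Gfra2 at 0.92, Cd209d at 0.92 and Tspan32 at 0.90, of which Cd209d encodes a lectin related to DC-SIGN. For Clec10a they were Themis2 at 0.82, Clec4a3 at 0.81 and Clec4a1 at 0.80, the Clec4a genes being myeloid lectin receptor genes. For Il33 they were Nup62, Ap1s3 and Clec12a, each at 0.90. For Gata3 the first was Gata2 at 0.72, and for Il10 it was Ptpn1 at 0.81, for Il4ra Treml2 at 0.76, for Arg1 Ptpro at 0.78 and for Chil3 Cisd1 at 0.78.

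Of 22 other markers of alternative activation, 9 rose and 3 fell with lard in conventional mice (all genes: 15.4% and 15.6%). In germ-free mice 6 rose and 4 fell with lard (all genes: 20.4% and 27.1%). Cd200r1, which encodes an inhibitory receptor of myeloid cells, had changes of 1.78 and 1.67. Mrc1, which encodes the mannose receptor CD206, had 0.44 (adjusted p = 0.0367) and 0.66. Ccl22, a chemokine gene of dendritic cells and macrophages, had changes of the same signs as Il4ra, 0.43 with lard in conventional mice and -0.35 in germ-free mice, and an interaction of 0.77 (adjusted p = 0.00243). Ccl17, which encodes the other ligand of CCR4, had a change of -0.90 with lard in germ-free mice (adjusted p = 0.00102).

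Conventional over germ-free with lard was higher for 4 of these 22 genes, among them the lectin genes Cd209d at 1.28 (adjusted p = 0.0223) and Cd209a at 0.78 (adjusted p = 0.0258). Cd209a also had an interaction of 1.26 (adjusted p = 0.0245). Dendritic cell markers, of which Cd209a is one, moved with bacterial status under lard too, with 7 of 12 higher (8.77% of all genes). Of these 12 markers 4 had a positive interaction (2.81% of all genes). Their group means were 8.22 in lard-fed conventional mice, 7.92 in lard-fed germ-free mice, 7.77 in fish oil-fed conventional mice and 7.89 in fish oil-fed germ-free mice. Within groups the r between Mgl2 and the dendritic cell mean was 0.45 (adjusted permutation p = 0.0687). The part of dendritic cells in the results for Mgl2 and Cd209a was not tested.

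Markers of classical activation, the state driven by interferon-gamma and bacterial products, are the usual contrast to these genes. Of 19 such genes, 8 rose and 2 fell with lard in conventional mice (all genes: 15.4% and 15.6%). In germ-free mice 5 rose and 5 fell with lard (all genes: 20.4% and 27.1%). Fcgr1, which encodes the high-affinity IgG receptor, had changes of 1.40 and 1.16. It is one of the 20 macrophage markers too, of which 17 rose in conventional mice, and 14 rose and 1 fell in germ-free mice. The part of macrophages in the Fcgr1 result was not tested. Cxcl10, an interferon-induced chemokine gene, was higher with lard in conventional mice by 1.39, and conventional over germ-free with lard was 1.08 (adjusted p = 0.00206). The median change of the classical list was 0.09 in conventional and -0.09 in germ-free mice, and that of the alternative list 0.32 and -0.01, against -0.04 and -0.08 for all genes.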

How the data were processed

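RNA of epididymal fat from 24 mice was hybridised by the authors to one-colour Affymetrix arrays. The deposited log2 signals, 1 per probe set, came from RMA, per the submitters' processing notes. This method subtracts background, equalises distributions between arrays and compresses low signals, which understates changes of weakly detected genes. The RMA version is not given in the sources here, nor is any batch. Precision is limited by the number of arrays, and array medians ran from 7.09 to 7.20.

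Probe sets were named through platform annotation: of 35556, 21789 had 1 gene symbol, 1621 several and 12146 none. Symbols were checked by Entrez ID (21698 found, 0 changed). The probe set with the highest mean was kept for each of 19938 genes. The 4 group means were fitted over 24 arrays in limma 3.58.1 under R 4.3.3 (functions lmFit and eBayes), which was tested on simulated data, and adjusted p-values are two-sided. The p-values rest on the spread between these mice. No label says how mice were housed or bred, so effects of housing or litter cannot be told apart from those of diet or bacterial status.

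Alternatives were array centring, quantile normalization, array weights, other priors, a filter on low signal, other probe set rules, the groups compared alone, a replicate block, a liver covariate and left-out mice. Correlations used permutation within groups, and promoters were searched by letters. The genes, the marker lists and the mice left out were chosen with earlier results of these data known. All listed genes were described, with at most the 4 largest changes past the threshold per pathway list and comparison, genes of the cell lists beside results, the 3 nearest genes and sequence relatives. Stat6, Pparg, Arg2, Odc1, Mrc1, Ccl17, Il4 and Il5 were added for their roles, and Rnase2a after its values were seen. Labels do not say whether mouse numbers pair mice across groups. Of 36 same-numbered pairs, 9 had a correlation of deviations over 0.1, with a range from -0.50 to 0.35. Such correlations show no clear pairing but cannot exclude it.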

Additional observations from a re-analysis of the deposited data

Results flagged for a closer look

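In 4 of 36 groups of 6 mice tested, the highest or lowest mouse stood far from the others, where chance gives about 1 in 20 groups. All 4 lay in fish oil-fed conventional mice. Retnla was low at 12.05 in mouse 6 (12.56 to 12.84 in the others), and Il10 was low at 5.03 in mouse 4 (5.33 to 5.46 in the others). Mouse 1 was high for Clec10a at 9.51 (8.80 to 9.04 in the others) and for Gata3 at 6.99 (6.70 to 6.78 in the others). The effect of bacterial status differed between lard-fed and fish oil-fed mice, by the interaction in limma, for Arg1 at 0.65 and for Il4ra at 0.91.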

How the results depend on the processing

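The Clec10a and Il4ra calls with lard in conventional mice, and the Il4ra calls for conventional over germ-free with fish oil and for the interaction, held in every alternative run. Counts of the 9 genes called moved as follows. For lard over fish oil in conventional mice (4 called), centring each array on its median gave 2 and leaving out genes of low mean signal, which keeps 5 of the 9, gave 2. In germ-free mice (3 called), that filter gave 1 and omitting lard-fed germ-free mice 2, 4 and 5 gave 1. For conventional over germ-free with lard, 2 were called, and 8 of the 9 had an unadjusted p under 0.05 in limma. Quantile normalization gave 4 called, array weights 6 and the replicate block 1. Omitting lard-fed conventional mice 5 and 6 gave 4, and the liver covariate 4. Omitting lard-fed germ-free mice 2, 4 and 5 gave 0 in limma (3 at an unadjusted p under 0.05). That omission left 177 calls among all genes, against 3240. With fish oil (2 called), the filter and the liver covariate gave 1 each, and for the interaction (2 called) the filter and the omission of those germ-free mice gave 1 each. Leaving out 1 mouse at a time gave 3 to 5, 3 to 4, 1 to 4, 2 to 2 and 2 to 3. Omitting those germ-free mice left 5278 and 225 calls among all genes for the germ-free diet comparison and the interaction, against 9468 and 1435. The block gave 3, 3, 1, 2 and 2 called genes. Directions turned only for changes that had not passed the test: Retnla with lard in conventional mice (-0.07) became 0.15 with array weights, 0.44 without lard-fed conventional mice 5 and 6, and -0.20 to 0.21 with 1 mouse left out. In germ-free mice Mgl2 (-0.03) became 0.04 with array weights, 0.06 without mice 2, 4 and 5 and -0.11 to 0.08, Il33 (0.04) became 0.00 with array weights, -0.38 with the liver covariate and -0.06 to 0.13, and Il10 (0.25) became -0.10 with that covariate. Without lard-fed conventional mice 5 and 6, Il33 became -0.11 for status with lard and -0.02 for the interaction. For status with fish oil, the liver covariate gave -0.17 for Il10 and -0.13 for Gata3, and leaving out 1 mouse gave -0.19 to 0.01 for Il33. The Arg1 call with lard in conventional mice ended with centring (0.23, adjusted p = 0.0891), array weights (0.23, adjusted p = 0.0592), adjustment over all probe sets (adjusted p = 0.0627), the groups compared alone (adjusted p = 0.124), the block (adjusted p = 0.0552), the liver covariate (adjusted p = 0.055), either omission of mice and 18 of 24 single left-out mice. Besides the omissions given above, the Il10 call with lard in conventional mice ended with centring (0.36, adjusted p = 0.0507). It also ended with 4 of 24 single left-out mice (adjusted p up to 0.0868). The Gata3 call in germ-free mice ended with quantile normalization (-0.17, adjusted p = 0.0768). The Gata3 status call with lard ended under the block (adjusted p = 0.0571) and with the groups compared alone (adjusted p = 0.0857). That Gata3 status call also ended with 4 of 24 single left-out mice (adjusted p up to 0.0857). Other settings made calls, among them Chil3 with lard in conventional mice. That change passed with quantile normalization (adjusted p = 0.0261), array weights (adjusted p = 0.00206) and 6 of 24 single left-out mice. With array weights the status changes with lard also passed for Chil3 (adjusted p = 0.00426) and Retnla (adjusted p = 0.0101). The same status changes of Clec10a and Il4ra passed with quantile normalization (adjusted p = 0.0368 and 0.0466) and array weights (adjusted p = 0.038 and 0.00883). They also passed with the low-signal filter (adjusted p = 0.0405 and 0.0409), and with 4 and 3 of 24 single left-out mice. Of 895 recomputed counts for the pathway lists, 746 stayed within 1.5 times the count given and 149 did not. The cause of these changes was not tested. Low signal over background limits Arg1, Chil3, Il10 and Gata3.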

Other observations

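Among sequence relatives of the secreted markers, Retn, the gene of the adipocyte hormone resistin and a relative of Retnla, was lower with lard, with changes of -0.69 in conventional mice (adjusted p = 0.00555) and -0.86 in germ-free mice (adjusted p = 0.000629). Retnlg, another gene of that family, had a change of -0.62 with lard in germ-free mice (adjusted p = 0.0136) and was higher in conventional than germ-free mice fed lard by 0.61 (adjusted p = 0.0389). Chia1, the acidic chitinase gene related to Chil3, had a change of -0.22 with lard in germ-free mice (adjusted p = 0.00478). Neither Retnlb nor Chil4 passed the test in any comparison.

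Among germ-free mice, mast cell markers averaged 7.34 with lard and 6.92 with fish oil, and Cpa3, a mast cell protease gene, had a change of 1.92 (adjusted p = 0.00159). It was the only 1 of 9 mast cell markers called higher, 7 did not pass, and Hdc, which encodes the histamine-forming enzyme, was lower, with a change of -0.45 (adjusted p = 0.00545). The 4 lard-fed mice with low Retnla had mast cell means of 7.47, 7.54, 8.21 and 7.78.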
